A study of Mus musculus with 19 samples.

Results

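The normal mouse blastocyst transcriptome was described in the 10 embryos labelled Control, out of 19 single-blastocyst libraries in the series. They were chosen by their label alone, and each embryo is 1 library and 1 replicate, named here Control 1 to Control 10. The labels give the genotype of these embryos only as Control. The other libraries come from embryos of oocytes that carry the P620A mutation of Padi6, and none of their values were used. Strain, embryo age, litter, sex and collection day are not given in the sources used here, so embryos may share a litter. Polyadenylated RNA was separated from the DNA of the same embryo, copied by template switching, amplified over 17 PCR cycles and read in pairs of 75 bases. A value is therefore an average over every cell of an embryo, and fewer cells of a type cannot be told apart from less RNA per cell.

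The blastocyst is the stage at which the embryo first holds separate cell lineages. The outer trophectoderm, specified by Cdx2, Gata3 and Tead4 and rich in the keratins Krt8 and Krt18, pumps fluid into the cavity and later gives rise to the placenta. The inner cell mass, which depends on Pou5f1 (the gene of OCT4) and Nanog, then parts into the epiblast, from which the body forms, and the primitive endoderm, which lines the cavity and forms yolk sac. Gata6 acts early in primitive endoderm, Pdgfra and Sox17 come on as these cells commit, and Gata4 follows. FGF4 made by epiblast precursors drives that choice through the receptors Fgfr1 and Fgfr2.

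The table lists 14173 genes. Values are log2 of a scaled count plus 1, and 13345 genes (94.2%) were above 0 in all 10 Control embryos. Scaled counts summed to between 36.3 M and 49.2 M per embryo (M, 1e6). Transcripts of the mitochondrial genome took 2.49% to 7.86% of that sum, and Rn18s-rs5, a copy of the 18S ribosomal RNA, took 4.05% to 18.4%. Embryos correlated with each other at a Spearman's rho over genes of 0.865 (Control 1 with Control 9) to 0.972 (Control 2 with Control 3), and no pair had identical scaled counts in more than 0.621% of genes. Control 9 stood farthest from the rest, with a median rho of 0.903 with the other embryos, 247 genes at 0 and a score of 120 on the first principal component, against -62.8 to 56.8 in the other 9. Control 4 had 238 genes at 0, and the other 8 embryos had 30 to 153. Of the variance between embryos, 24.4% lay on the first principal component. Of 5 measures of the libraries compared with its score, 3 passed a 2-sided permutation test after Benjamini-Hochberg adjustment over the 5: the mitochondrial share (Pearson's r = 0.862, adjusted p = 0.0047; rho = 0.903, adjusted p = 0.0047), the number of genes at 0 (r = 0.856, adjusted p = 0.0047; rho = 0.782, adjusted p = 0.0243) and the correlation of a library with GC content (r = -0.811, adjusted p = 0.0106; rho = -0.648, adjusted p = 0.0674). Without the 2 embryos farthest from the median of each measure, these r were 0.857, 0.809 and -0.815. The score and the 5 measures were computed from the same values, so part of each relation is built in. The p-values therefore cannot show that a property of the libraries lies behind the component.

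All 12 lineage markers, of all 3 lineages of the labelled stage, were above 0 in every Control embryo. A value above 0 does not by itself show that a gene was expressed. Ddx3y, a Y-linked gene, stood at up to 5.32 in the 4 embryos where it was low. In Control 9 Gata4 was at 3.00 and Sox17 at 4.09, so their expression in that embryo is uncertain. Compared per kb of transcript, on the log2 scale, Krt8 was the highest of the 12 at 16.21, followed by Pou5f1 at 14.14, Gata3 at 13.28, Cdx2 at 13.10, Nanog at 12.26 and Gata6 at 12.09. The others were lower, at 9.77 for Sox17, 9.42 for Pdgfra, 9.36 for Eomes, 8.20 for Sox2, 7.82 for Gata4 and 7.21 for Fgf4. Of the longer lists, 23 of 28 genes of inner cell mass and epiblast, 26 of 30 of trophectoderm and 18 of 22 of primitive endoderm were listed. Few markers of other cell types that could come with a flushed embryo were among the genes analysed. Of 12 cumulus and granulosa genes only Nr5a2 was listed, a gene that blastocysts express themselves. Of 10 genes of uterine and oviduct epithelium only Ovgp1 was listed, at a median of 5.45 and at 0.00 in Control 5, and of 8 blood genes only Alas2, at 4.86 to 8.74 with a median of 6.97. The hyaluronan synthase Has2, the lactoferrin gene Ltf, the leukocyte gene Ptprc and the adult globin genes were not analysed here. Few genes known from the oocyte were among those analysed as well. Of 20 such genes 5 were listed, of which Khdc3, a member of the maternal complex under the egg cortex, was high at 15.02 to 16.19. Whether its transcripts were left from the oocyte was not tested. Khdc3 shares 45.7% of its 31-base stretches with another gene. Of its partners, Ooep had a median of 8.86, Tle6 of 8.61 and Padi6 of 6.48.

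The most abundant transcripts were those of ribosomes, mitochondria, the cytoskeleton and translation. By scaled count the 12 highest were Rn18s-rs5, mt-Rnr2, Actb, mt-Nd1, mt-Co1, Hsp90aa1, Eef1a1, Calcoco2, Psap, Actg1, mt-Cytb and Krt8. The 10 highest genes of an embryo took 17.8% ± 5.44 (SD, n = 10) of its scaled counts. Levels per kb of transcript could be set only for the 13357 genes with a transcript length. Rn18s-rs5 had none and was not ranked. Among the ranked genes mt-Rnr2, the large mitochondrial ribosomal RNA, led at 19.53 on the log2 scale. It was followed by mt-Nd1 at 18.58, mt-Co1 at 17.69, Actb (beta-actin) at 17.58 and mt-Cytb at 17.06. Next came Eif5a, a translation factor, at 16.93, Eef1a1, which brings tRNA to the ribosome, at 16.89, and Calcoco2, whose human counterpart NDP52 is an autophagy receptor, at 16.86. The chaperone Hsp90aa1 stood at 16.63 and Actg1 at 16.59. The last of the 12 were genes of early embryos and pluripotent cells, Dppa3 at 16.42, which shields methylated DNA in the egg, and Dppa5a at 16.42, an RNA-binding protein of pluripotent cells. Many of these genes have near-identical copies in the genome. Of the 31-base stretches in the transcript, 74.8% for Eef1a1, 70.8% for Hsp90aa1, 63.9% for mt-Co1, 61.1% for Actg1 and 57.2% for Dppa5a occur in transcripts of other genes, so their levels are uncertain where reads could be split.

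Abundance did not go with a fixed spread. Calcoco2 lay between 16.99 and 17.83 with a median of 17.59, and Krt8 between 16.58 and 17.53 with a median of 17.17, so that the highest embryo had 1.78 and 1.93 times the scaled count of the lowest. By contrast mt-Nd1 lay between 16.78 (Control 6) and 20.06 (Control 5) with a median of 17.84, a ratio of 9.71. Dppa3 lay between 14.48 and 17.50 with a median of 15.64, a ratio of 8.11. The ribosomal RNA copy Rn18s-rs5 was lowest in Control 7, at 20.57, and highest in Control 5, at 23.11. Genes commonly taken as references also differed in spread: Tbp, the gene of the TATA-binding protein, lay between 10.60 and 11.41, and Ppia, the gene of cyclophilin A, between 13.72 and 16.74. Of the 31-base stretches of Ppia 57.4% occur in transcripts of other genes, so its values are uncertain.

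The spread between embryos fell steeply with the level. The median SD over the 10 embryos was 0.695 on the log2 scale across all genes, which corresponds to a factor of 1.62, and single genes ran from 0.113 to 4.65. With the genes cut into 10 classes of equal size by their mean, the median SD was 1.75 in the lowest class and 0.438 in the highest. In all, 3823 genes (27% of those listed) had an SD above 1, and 359 had an SD under 0.25. Genes were therefore ranked among the 300 genes nearest in mean level, and the relative SD is a gene's SD divided by the median SD of these neighbours. A gene is called most variable with a percentile of at least 90 among them and least variable with a percentile of at most 10. By this rule 10.2% of all genes were called most variable and 10.2% least variable, and among genes above the median level 10.3% and 10.1%. These ranks describe the 10 embryos and carry no test.

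**Figure D1:**
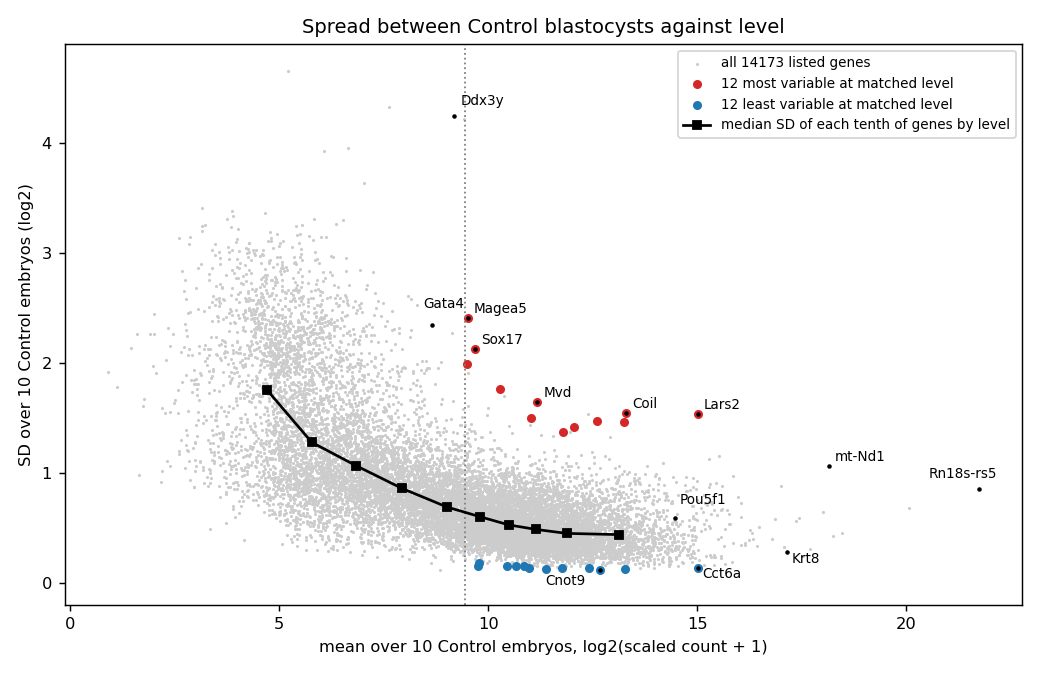
SD over the 10 Control embryos (y axis, log2) against the mean (x axis, log2 of scaled count + 1) for each listed gene (grey points), with the 12 most variable (red) and 12 least variable (blue) named genes at matched level and the median SD of each of 10 classes of level (black squares). The dotted line is the median level of 9.43. The median SD falls from 1.75 to 0.438 across the classes, and Coil and Lars2 stand far above genes of their level, as do Magea5 and Sox17, whose relative SDs of 3.78 and 3.45 are 1.53 and 1.68 without Control 9.

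Among the 12 most variable named genes above the median level, unnamed gene models left aside, were 3 enzymes of cholesterol synthesis and 2 genes of primitive endoderm. Sox17, a transcription factor of endoderm, had a relative SD of 3.45 and lay between 4.09 (Control 9) and 11.41 (Control 1) with a median of 10.01. Without Control 9 its relative SD was 1.68. Lama1, which encodes a chain of the basement membrane protein laminin, had a relative SD of 3.15 and lay between 5.70 (Control 6) and 11.62 (Control 1) with a median of 10.13. The cholesterol synthesis genes Mvd, Lss and Mvk had relative SDs of 3.33, 3.17 and 3.02. Aacs, which makes acetoacetyl-CoA, a building block for sterols and fatty acids, had 3.19.

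The remaining members of this group each had a pattern of their own. Coil, the gene of the Cajal body protein coilin, was low in 3 embryos, at 11.01 (Control 1), 11.54 (Control 7) and 10.91 (Control 10), and lay between 13.48 and 14.74 in the other 7. No 31-base stretch of its transcript occurs in another gene. Lars2, the leucyl-tRNA synthetase of mitochondria, was highest in Control 5, 9 and 10, at 17.21, 16.87 and 16.82, and lowest in Control 1 at 13.42. Its 3 highest embryos were among the 5 with the highest mt-Rnr2, which stood at 20.52, 20.63 and 20.85 in them and at 18.90 in Control 6, and any part of this in the result was not tested. Cpn1, a carboxypeptidase subunit, ran from 6.11 (Control 9) to 11.89 (Control 10) with a median of 10.97, and its relative SD fell from 3.26 to 2.07 without Control 9. Magea5 was at 3.00 in Control 9 and between 9.26 and 11.31 in the other 9 embryos, and Tpm3-rs7 was at 8.57 in Control 10 and between 12.63 and 13.70 in the others. Without the lone embryo the relative SD of Magea5 was 1.53 in place of 3.78, and that of Tpm3-rs7 0.98 in place of 3.35. Ftl1, the light chain of the iron store ferritin, lay between 11.43 and 15.77 with a median of 13.08. The transcripts of Magea5, Tpm3-rs7 and Ftl1 share 71.4%, 78.6% and 94.9% of their 31-base stretches with other genes, so these 3 are uncertain.

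The 12 least variable named genes above the median level were Wars2, Cdc7, Pafah1b2, Cnot9, Nasp, Nol10, Nrdc, Brox, Cct6a, Mtf1, Ptpn21 and Golph3, with relative SDs of 0.251 to 0.308. Cct6a, a subunit of the chaperonin that folds actin and tubulin, was the most abundant of them and lay between 14.81 and 15.23 with a median of 15.00. Nasp, which escorts histones, lay between 13.10 and 13.53 with a median of 13.27. Cnot9, a subunit of the deadenylase complex that shortens poly(A) tails, lay between 12.49 and 12.85 with a median of 12.64. Cdc7, the kinase that fires replication origins, lay between 10.76 and 11.13 with a median of 11.00. In each of these 4 the highest embryo had at most 1.35 times the scaled count of the lowest. With the trend of each library on transcript length and GC content removed, Pafah1b2 rose to a percentile of 89.0 and Mtf1 to 24.7. Nrdc had no value under that setting, and the others of the 12 stood at 4.33 or below.

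The most and least variable genes differed in transcript properties that the ranking did not use, given here as a description. Above the median level, the median transcript length was 1755 bases in the most variable genes, 3181 in the least variable genes and 2866 in all genes. The median GC content was 53.2%, 47.9% and 49.5% in the same order. Libraries also differed in how their values moved with these properties: over genes, the rank correlation of an embryo's deviation from the gene means ran from -0.310 (Control 5) to 0.358 (Control 1) with length and from -0.396 (Control 4) to 0.563 (Control 6) with GC content. When each library's trend on length and GC content was removed, 887 of the 1451 most variable genes and 554 of the 1449 least variable genes kept their place. Among RefSeq promoters of the build GRCm38.p6, which span 250 bases before to 50 after a start and could be matched for 9575 of the 14173 genes, TATAAA on the sense strand 20 to 40 bases upstream was found in 1.26% of the most variable genes, 0.891% of the least variable genes and 0.908% of all genes above the median level. The median number of CG pairs per promoter was 20, 24 and 22.

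Genes of cholesterol synthesis spread widely between embryos and moved together. Of its 25 genes, all listed and all above 0 in every embryo, 13 were among the most variable genes and 0 among the least variable (10.2% of all genes are in each class), with a median relative SD of 1.64 against 1.00 for all genes. Among the 13 are Acat2 at the entry, Mvk, Pmvk, Mvd and Fdps to farnesyl diphosphate, Fdft1, Sqle and Lss to the first sterol, and Cyp51, Ebp, Hsd17b7 and Dhcr7 to cholesterol. Fdps shares 85.7% of its 31-base stretches with other genes, so its values are uncertain. Over all pairs of members the median r was 0.749, and 92.3% of pairs were positive. These genes are known to be driven together by SREBP2 when membrane sterol is low.

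The leading enzymes parted the embryos alike. Mvd, which makes isopentenyl diphosphate, was highest in Control 6 and 2, at 13.06 and 13.02, had a median of 11.40 and was lowest in Control 8, at 8.20. Lss, which closes the first sterol ring system, was highest in Control 2 at 13.99, had a median of 12.21 and was lowest in Control 10 at 9.90. Mvk, the mevalonate kinase, was highest in Control 6 at 12.86, had a median of 10.91 and was lowest in Control 5 at 8.02. In all 3 genes Control 1, 2, 3 and 6 were above Control 5, 8, 9 and 10, without overlap, embryos named after their values were seen. The highest embryo had 29.1, 17.0 and 28.7 times the scaled count of the lowest. Hmgcs1, which makes HMG-CoA, spread less and lay between 11.71 and 13.44 (relative SD 1.31). Insig1, which holds the SREBP complex back, had a relative SD of 1.33, and Idi1, at 0.93, was the only member below the level-matched median. As a median over members, embryos ran from -0.99 (Control 5) to 1.01 (Control 6) around the gene means on the log2 scale. The 4 embryos that were high had correlations with GC content of 0.241 to 0.563 and the 4 that were low of -0.318 to -0.220, and the part of this in the result was not tested. The embryos outside these groups went the other way. Control 4 had a correlation of -0.396 and a median over members of 0.27, and Control 7 had 0.292 and -0.12. With the trend on length and GC content removed, 19 of the 25 genes were among the most variable. Leaving out 1 embryo at a time gave 10 to 16 members, and leaving out both Control 4 and Control 9 gave 15.

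Promoters of these genes are shown because the members moved together and because cholesterol genes are textbook targets of SREBP2 with the CCAAT-binding factor NF-Y. A promoter was matched for 18 of the 25 genes, and CCAAT or its reverse complement ATTGG was present in 17 of them (94.4%), against 43.6% of all 9575 genes with a promoter of that length. TCACNCCAC, a form of the sterol regulatory element searched on both strands, was present in 1 of the 18 (5.56%), Hmgcs1, against 1.37% of all. These are matches of letters in a window and not tested sites. The 160 bases before the RefSeq start of Hmgcs1 and of the 3 most variable enzymes are given in GRCm38.p6, 5′ to 3′ on the strand of the gene, with the matches of these 3 motifs in capitals. They lie at chr13:119690191-119690350 on the plus strand, chr8:122443423-122443582 on the minus strand, chr10:76531445-76531604 on the plus strand and chr5:114444109-114444268 on the plus strand, each ending at the base before the start of the gene.
Hmgcs1: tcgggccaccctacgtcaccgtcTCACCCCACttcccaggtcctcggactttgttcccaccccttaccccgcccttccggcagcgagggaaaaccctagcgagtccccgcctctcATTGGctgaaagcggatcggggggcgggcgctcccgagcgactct
Mvd: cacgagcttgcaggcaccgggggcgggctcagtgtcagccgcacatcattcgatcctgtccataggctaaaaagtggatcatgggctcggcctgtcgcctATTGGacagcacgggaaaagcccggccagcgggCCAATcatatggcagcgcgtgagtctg
Lss: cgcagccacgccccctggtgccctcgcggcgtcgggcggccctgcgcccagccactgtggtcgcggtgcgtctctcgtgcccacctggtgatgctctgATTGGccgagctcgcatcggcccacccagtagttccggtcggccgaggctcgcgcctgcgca
Mvk: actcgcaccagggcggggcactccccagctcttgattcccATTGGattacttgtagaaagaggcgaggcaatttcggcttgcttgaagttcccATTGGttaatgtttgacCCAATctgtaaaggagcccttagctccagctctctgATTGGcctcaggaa

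Of the 3 lineages, primitive endoderm had the most members among the highly variable genes. Of its 18 listed genes 10 were among the most variable and 0 among the least variable (10.2% of all genes are in each class), and the median relative SD was 2.00. Among the transcription factors, Gata4 and Sox17 had relative SDs of 3.24 and 3.45, while Gata6, the earliest of them, had 1.28 and Hnf4a had 1.44. The receptor Pdgfra had 1.55 and the FGF receptor Fgfr2 had 0.91. Laminin and collagen IV genes of the basement membrane were among the most variable in 4 of 5 cases, namely Lama1, Lamb1, Col4a1 and Col4a2. Lamc1 was the exception at 1.08, and Sparc was not called either, at 1.36. The collagen chaperone Serpinh1 was among the most variable. So were the endocytic receptor genes Cubn and Amn, whose relative SDs fell from 2.56 to 1.20 without Control 6 and from 2.11 to 1.02 without Control 8, and the lipid carrier Apoe, while Lrp2 and Dab2 had 1.11 and 0.85. Without Control 9 the relative SD was 2.20 for Gata4, 1.68 for Sox17, 1.19 for Gata6 and 1.12 for Pdgfra. Lamb1 then fell from 2.23 to 1.67, at a percentile of 87.3, and was no longer called. Lama1, Col4a1, Col4a2 and Serpinh1 stayed among the most variable genes without that embryo. Over the pairs of members the median r was 0.417, and 77.1% of pairs were positive. As a median over members, Control 1 was highest at 1.02, followed by Control 7 at 0.77 and Control 10 at 0.71, and Control 9 and 6 were lowest at -1.02 and -0.68. Removal of the length and GC trend gave 12 members among the most variable, leaving out 1 embryo at a time 9 to 11, and leaving out Control 4 and Control 9 together 9.

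In the other 2 lineages smaller shares of the members were called, beside 10.2% of all genes in each class. For inner cell mass and epiblast, 4 of 23 genes (17.4%) were among the most variable and 3 among the least variable, with a median relative SD of 0.957. The 4 were Tdh, an enzyme of threonine use in pluripotent cells, Utf1, Dppa5a and Prdm14. Sall4, Zfp42 and Otx2 were among the least variable, of which Sall4, a pluripotency factor, lay between 12.97 and 13.69 with a median of 13.28. For trophectoderm, 6 of 26 (23.1%) were among the most variable and 3 among the least variable, with a median relative SD of 1.11. The 6 were the water channel Aqp8, the tight junction genes Cldn4 and Cldn6, the fatty acid carrier Fabp3, Dppa1 and Gata2. The 3 were Atp1b1, a subunit of the sodium pump, the water channel Aqp3 and Plac1. Fabp3 shares 50.1% of its 31-base stretches with other genes, so its values are uncertain. The sodium pump subunit Atp1b1 lay between 11.91 and 12.54 with a median of 12.24, so genes of the fluid-pumping epithelium were found at both ends. Pairs of members had a median r of 0.161 within inner cell mass and 0.104 within trophectoderm. Between lists the median r was 0.014 for inner cell mass with trophectoderm, -0.009 for primitive endoderm with trophectoderm and 0.194 for inner cell mass with primitive endoderm.

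**Figure D2:**
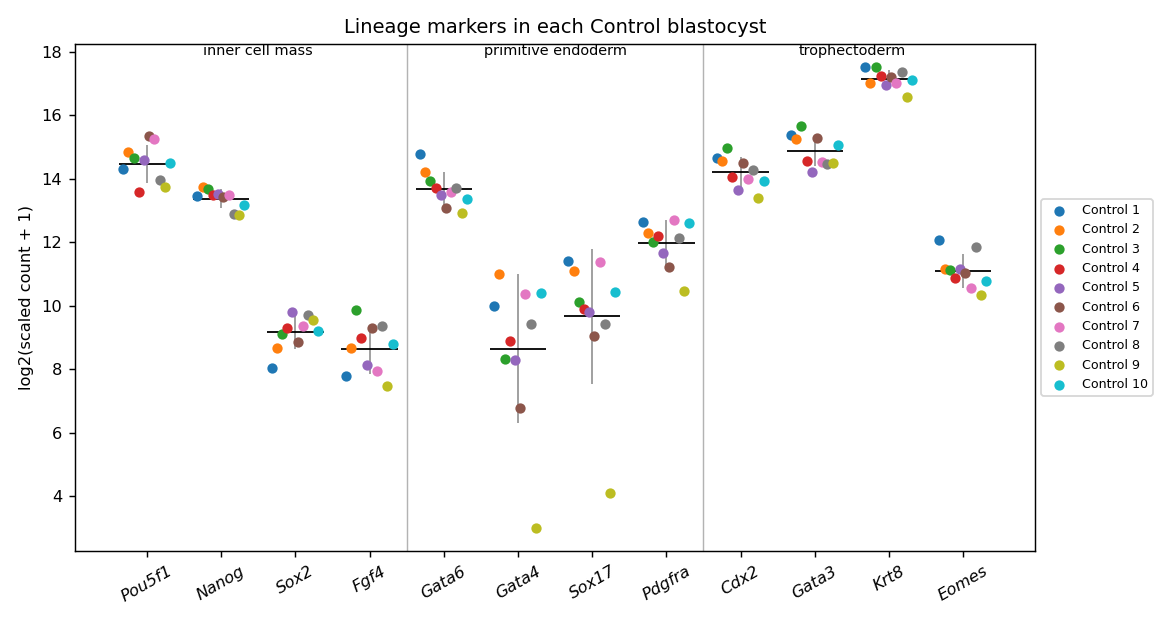
Level of 4 markers each of inner cell mass, primitive endoderm and trophectoderm (log2 of scaled count + 1) in each Control embryo (coloured points), with the mean (black line) and SD (grey bar) of the 10 embryos. Gata4 and Sox17 are at 3.00 and 4.09 in Control 9, while Nanog and Krt8 span less than 1 log2 unit.

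Single markers showed the contrast of primitive endoderm with the other 2 lineages only in part. Relative SDs were 3.45 for Sox17, 3.24 for Gata4, 1.55 for Pdgfra and 1.28 for Gata6. For inner cell mass they were 1.37 for Pou5f1, 1.07 for Fgf4, 0.81 for Sox2 and 0.69 for Nanog. For trophectoderm they were 1.15 for Cdx2, 1.13 for Gata3, 1.08 for Eomes and 0.65 for Krt8. Pou5f1 thus lay above Gata6, and without Control 9 Pou5f1, at 1.31, also lay above Pdgfra, at 1.12. Nanog was between 12.88 and 13.75 with a median of 13.47, lowest in Control 9 and 8. Pou5f1 was between 13.60 and 15.35 with a median of 14.54, lowest in Control 4 and 9 and highest in Control 6 and 7. Cdx2 was between 13.41 and 14.97 with a median of 14.16, lowest in Control 9 and highest in Control 3. Gata6 was between 12.91 and 14.77 with a median of 13.65, lowest in Control 9 and highest in Control 1. Control 9 was thus the lowest embryo for Nanog, Cdx2, Krt8, Gata6, Gata4, Sox17, Pdgfra, Fgf4 and Eomes, 9 of the 12 markers, but not for Pou5f1, Sox2 or Gata3. Gata4 was between 3.00 and 10.99 with a median of 9.16, with Control 6 second lowest at 6.79. Sox17, given above, was second lowest in Control 6 at 9.04. Pdgfra was between 10.47 (Control 9) and 12.69 (Control 7) with a median of 12.17, with Control 6 second lowest at 11.22.

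Among the 66 pairs of the 12 markers, 3 varied together past the threshold (4.55%), all between the later primitive endoderm genes. Tests were 2-sided permutation tests with 100000 resamples over the 10 embryos, adjusted over the 66 pairs. Gata4 and Pdgfra had r = 0.951 (permutation p = 0.00016, adjusted p = 0.0076; rho = 0.879, adjusted p = 0.0367). Sox17 and Pdgfra had r = 0.907 (permutation p = 0.00023, adjusted p = 0.0076; rho = 0.915, adjusted p = 0.0205). Gata4 and Sox17 had r = 0.946 (permutation p = 0.00042, adjusted p = 0.0092), but rho = 0.806 did not pass (adjusted p = 0.108). Without the 2 embryos farthest from the median of the first gene of the pair, r was 0.775, 0.794 and 0.704. All 3 calls ended when Control 9 was left out, with r of 0.889, 0.823 and 0.804 and adjusted p = 0.105, 0.117 and 0.158, and when Control 6 was left out, with r of 0.952, 0.944 and 0.959 and adjusted p = 0.0636, 0.0636 and 0.0664. Removing the length and GC trend ended the call for Gata4 and Pdgfra alone (r = 0.866, adjusted p = 0.07). Gata6 had r of 0.653 with Gata4, 0.679 with Sox17 and 0.671 with Pdgfra, none past the threshold (adjusted p = 0.2, 0.197 and 0.196).

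Of the 6 pairs within trophectoderm 0 passed the threshold, and 2 came close to it. Cdx2 had r = 0.84 with Gata3 (adjusted p = 0.0541) and r = 0.816 with Krt8 (adjusted p = 0.0541), and its rho was 0.806 and 0.77 (adjusted p = 0.108 and 0.117). With the length and GC trend removed these r were 0.157 and 0.668. For the other 4 pairs the adjusted p was 0.158 (Krt8 and Eomes), 0.261 (Cdx2 and Eomes), 0.261 (Gata3 and Krt8) and 0.601 (Gata3 and Eomes). Sox2, a partner of OCT4, ran against Gata3 with r = -0.772 (adjusted p = 0.0681) and a rho of -0.915 that passed (adjusted p = 0.0205). Pou5f1 and Nanog had r = 0.538 (adjusted p = 0.287), and Nanog and Gata6, factors that oppose each other in single inner cells, had r = 0.49 (adjusted p = 0.354). In all, 54 of the 66 pairs were positive and 12 negative, and 16 had an unadjusted p under 0.05.

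**Figure D3:**
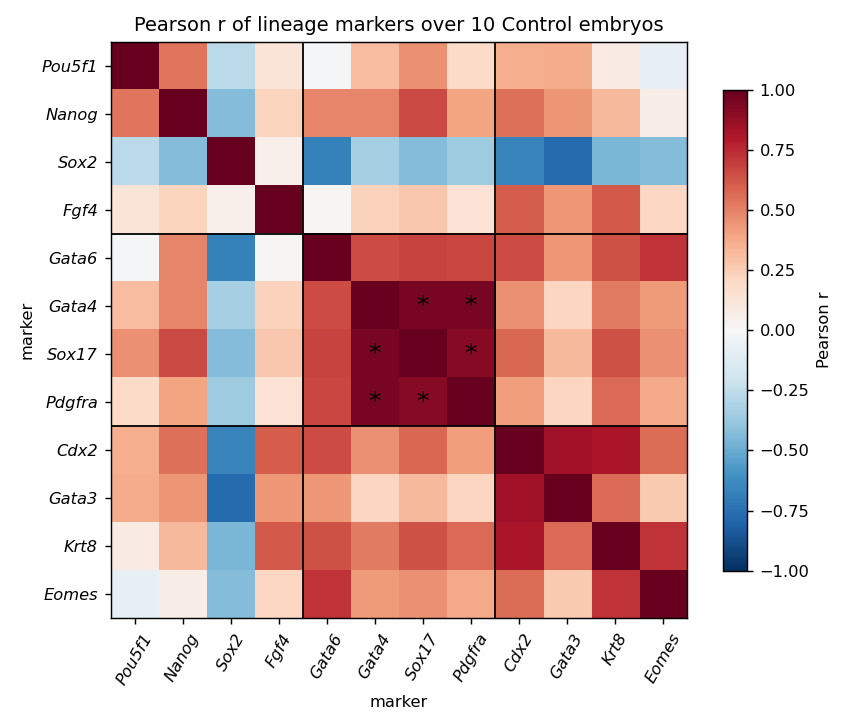
Pearson's r over the 10 Control embryos for each pair of the 12 lineage markers (both axes), from blue (negative) to red (positive), with stars on the pairs past an adjusted p of 0.05. The 3 starred pairs join Gata4, Sox17 and Pdgfra, and Sox2 is negative with all other markers but Fgf4.

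For 5 of the markers, the genes above the median level whose values were most like theirs over the 10 embryos were named by the highest r, as a description. For Cdx2 they were Tfeb, a regulator of lysosome genes (r = 0.975, rho = 0.976), Arhgap9 (r = 0.960), Sh3bp5l (r = 0.954) and the protease Capn1 (r = 0.952). For Krt8 they were the kinase Akt2 (r = 0.929, rho = 0.939), Hgsnat (r = 0.911), Stk40 (r = 0.902) and Hmgxb3 (r = 0.901). For Pou5f1 they were Fam98c (r = 0.959), Utf1, a chromatin factor of pluripotent cells (r = 0.958, rho = 0.939), Arf5 (r = 0.956) and Tsr3 (r = 0.941). For Nanog they were Gle1, an mRNA export factor (r = 0.949, rho = 0.806), Gnl1, Dnaaf10 and Cpsf3, with r of 0.892 to 0.898. For Gata6 they were the stress kinase Mapk14 (r = 0.935, rho = 0.976), Gpkow (r = 0.914), the glutamate carrier Slc1a1 (r = 0.911) and Nid1, a basement membrane protein (r = 0.895). Utf1 is the only one of the 20 on the list of its marker's lineage. Choosing the highest r among so many genes over 10 shared libraries gives high values by itself, and Akt2 and Fam98c share 34.0% and 59.4% of their 31-base stretches with other transcripts.

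Cytosolic ribosomal protein genes moved together more closely than the members of any other list with over 4 listed genes. Of 81 genes 48 were among the most variable and 2 among the least variable (10.2% of all genes are in each class), the median relative SD was 1.84 and the median r over pairs was 0.915. They were highest in Control 9 and 5, where the list took 5.19% and 4.18% of all scaled counts, and lowest in Control 1, at 1.52%. The 13 proteins encoded by mitochondrial DNA, subunits of the respiratory chain and ATP synthase, had 5 members among the most variable and a median r of 0.849, and took 1.24% (Control 6) to 4.53% (Control 5). Both lists consist of short transcripts, with median lengths of 680 and 784 bases against 2524 for all genes, and Control 5 and 9, which were high for both, had the 2 lowest correlations with length, -0.310 and -0.273, and the part of this in the result was not tested beyond the removal of that trend. Removing the trend on length and GC content left 13 ribosomal and 0 mitochondrial members among the most variable. Leaving out Control 9 left 33 ribosomal members. Rpl3 was an exception among the ribosomal genes, lying between 15.14 and 15.62 with a median of 15.38 and a percentile of 1.67. Of its 31-base stretches 87.6% occur in transcripts of other genes, so its values are uncertain. The other ribosomal genes checked in this way shared 85.3% (Rps2), 72.8% (Rps27a) and 32.2% (Rpl4). The values of the whole list are therefore uncertain where reads could be split.

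**Figure D4:**
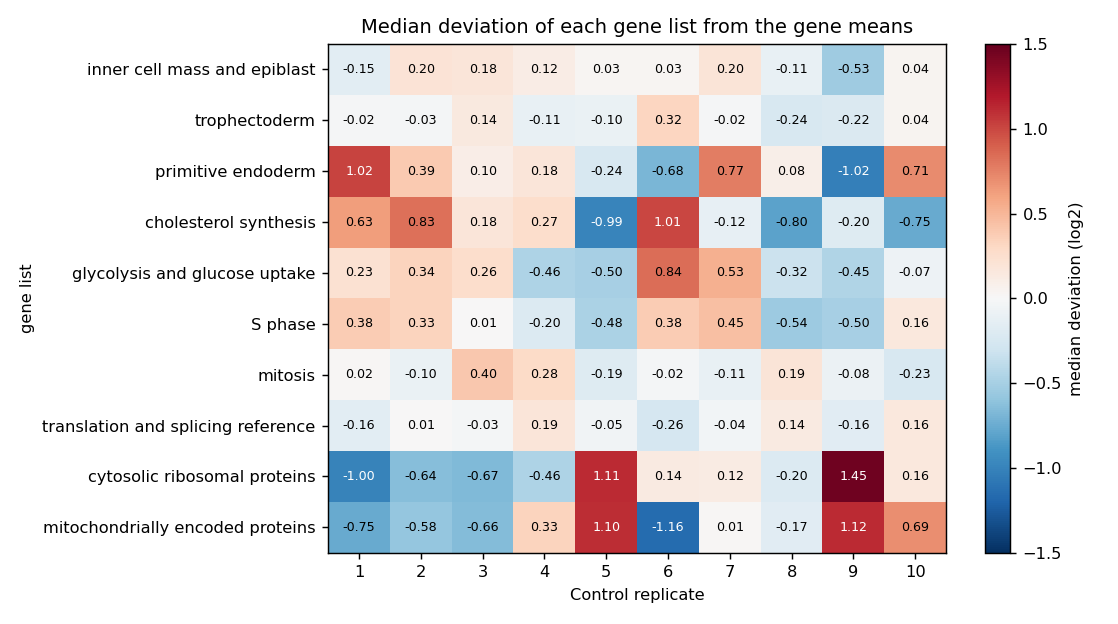
Median deviation of the members of 10 gene lists (rows) from their gene means in each Control embryo (columns), on the log2 scale, in numbers and colour. Cholesterol synthesis runs from -0.99 in Control 5 to 1.01 in Control 6, primitive endoderm from -1.02 in Control 9 to 1.02 in Control 1, and the 2 lists of short transcripts at the bottom are high in Control 5 and 9.

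Other lists held between 0% and 50% of their members among the most variable genes, beside 10.2% of all genes. Of 16 genes of glycolysis and glucose uptake 4 (25%) were among the most variable and 0 among the least variable, the 4 being the glucose carrier Slc2a1, the phosphofructokinases Pfkl and Pfkm, and Ldha. Pfkl lay between 7.66 and 11.70 with a median of 10.41. Of 11 genes of the integrated stress response 4 (36.4%) were among the most variable, led by the asparagine synthetase Asns, which lay between 8.96 and 12.74 with a median of 11.65, while the regulator Atf4 had a percentile of 18. Of 14 p53 targets 4 (28.6%) were among the most variable, led by Sesn2, which is also on the stress list. The counts of most variable genes were 2 of 20 for mitosis, 1 of 20 for S phase, 2 of 13 for heat shock proteins, 1 of 20 for the DNA methylation machinery (Dppa3), 1 of 3 for the interferon response, 3 of 16 for common reference genes, 1 of 2 for genes of the 2-cell stage (Dppa3 again), and 2 of 12 and 4 of 13 for 2 lists of imprinted genes. With the length and GC trend removed, the 2 lists of imprinted genes had 7 of 12 and 3 of 13. Of these imprinted genes, the noncoding RNA Meg3 spread most at its level, from 6.43 to 10.88 with a median of 9.07. For 16 genes of translation and splicing, chosen as a steady reference, 0 were among the most variable and 4 among the least variable, and the median relative SD was 0.726. With the length and GC trend removed, 1 was in each class and the median relative SD was 1.07. Because the list was chosen to be steady, a low spread is partly built in. Oocyte transcripts had 0 of 5 in either class.

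Y-linked genes split the embryos into 2 groups. Ddx3y, an RNA helicase, was between 12.02 and 13.01 in Control 2, 3, 4, 7, 8 and 9 and between 3.17 and 5.32 in Control 1, 5, 6 and 10. Eif2s3y, a translation initiation subunit, was at 11.88 or above in the first 6 and at 5.17 or below in the other 4. Kdm5d and Uty, both histone demethylase genes, gave the same split, with gaps of 6.18 and 6.22 on the log2 scale. The 4 genes shared this split and had pairwise a median r of 0.990. Xist was not analysed here. Over 193 X-linked genes above the median level, the median deviation from the gene means was -0.38 to 0.26 in the 6 embryos with high Y-linked genes (Control 3 lowest, Control 9 highest) and -0.05 to 0.45 in the other 4, so the groups overlapped. Autosomal medians lay between -0.05 and 0.06.

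**Figure D5:**
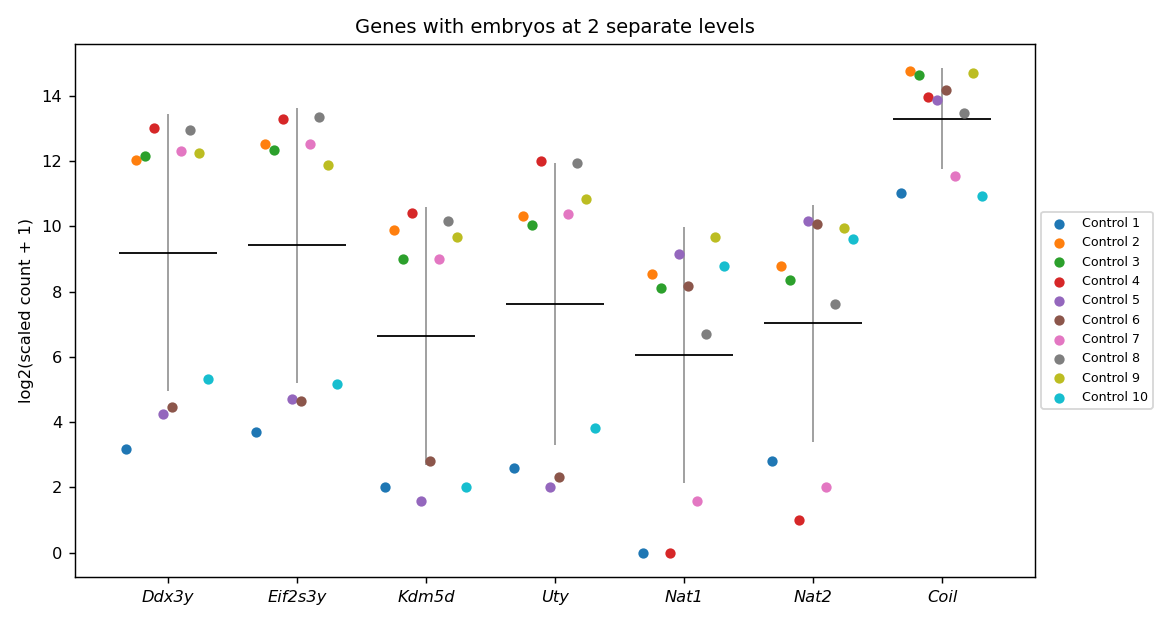
Level (log2 of scaled count + 1) of 4 Y-linked genes, Nat1, Nat2 and Coil in each Control embryo (coloured points), with the mean (black line) and SD (grey bar). The Y-linked genes part Control 1, 5, 6 and 10 from the rest, Nat1 and Nat2 part Control 1, 4 and 7, and Coil parts Control 1, 7 and 10.

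Embryos also stood at 2 separate levels for some genes outside the Y chromosome. A gap of at least 1.5 on the log2 scale that took at least 50% of the range, with at least 3 embryos on either side, was found in 63 genes (0.445% of those listed), a rule set after the values were seen. The 4 Y-linked genes are among them, and of the other 59 genes 56 were at or below the median level. The neighbouring acetyltransferase genes Nat1 and Nat2 on chromosome 8 shared a split. Nat1 was at 0.00, 0.00 and 1.58 in Control 1, 4 and 7 and between 6.70 and 9.65 in the others, and Nat2 was at 2.81, 1.00 and 2.00 in the same 3 and between 7.62 and 10.16 in the others. Above the median level the rule found Coil, on chromosome 11, Cactin, and Gm15459, a copy of the chaperone gene Hspa8 whose transcript shares 99.8% of its 31-base stretches with others. Cactin, a splicing factor gene, was between 8.14 and 9.03 in Control 4, 5, 8, 9 and 10 and between 10.54 and 11.11 in the other 5. The low Cactin embryos were the 5 whose deviations had a negative correlation with GC content, -0.396 to -0.220, which was 0.241 to 0.563 in the other 5, and the part of this in the result was not tested.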

How the data were processed

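RNA was measured in single blastocysts, and the 10 Control libraries were analysed. The submitters' processing notes name HISAT2 2.1.0 (an aligner), Trim Galore 0.4.4 (a read trimmer) and the builds GRCm39 and mm39. The counting tool, the annotation, the use of strand and the rule for listing genes are not given in the sources used here. The deposited values are log2 of an upper-quartile scaled count plus 1: taken back, all lay within 1.96e-07 of a whole number, and the 75th percentile was 11.18 in each library. In 5 libraries the whole numbers missing up to 300 gave the scaling step and with it original counts of 27.8 M to 46.1 M (M, 1e6). The labels give a mean of 4.2 M reads, and the difference was not resolved. The other 5 libraries gave no step. Counting error therefore could not be set for each value, and PCR copies are not independent molecules. Every column used maps to a sample, with 0 left unmapped.

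No test compared groups. SDs are over the 10 embryos, and matched levels used 300 neighbours. Correlations used permutation tests in SciPy 1.17.1 with NumPy 2.4.6, pandas 2.3.3 and statsmodels 0.14.6 in Python 3.11.15, called at an adjusted p under 0.05. Where fewer than 10 embryos remained the permutations were enumerated exactly. The procedure was tested on simulated data. Lengths and GC content came by symbol from GENCODE M21 (shortest principal transcript, 13357 genes, of which 10982 principal), and levels per kb are log2 of the mean scaled count per kb. Trends on length and GC content were removed by lowess with a span of 0.3. Shared 31-base stretches were counted against all GENCODE M21 transcripts on both strands.

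Named genes were the 12 markers, the Y-linked list, the 12 highest by scaled count and per kb, the 12 most and 12 least variable named genes above the median level, 3 members at either end of each lineage list, up to 3 members with the highest mean and the most variable member of other lists, and 4 genes most like each of 5 markers. Other genes were named after their values were seen. Some genes that meet the rule are not reported here. The 25 lists and the members were chosen with earlier results of these data known. Alternatives were quantile normalization, median centring, a pseudocount of 10 in place of 1, a filter on genes above 0 in all embryos, values free of the length and GC trend, the median absolute deviation, 100 neighbours, Spearman's rho, removal of the first principal component, each embryo left out in turn, and, chosen after seeing the data, Control 4 and Control 9 left out together.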

Additional observations from a re-analysis of the deposited data

Results flagged for a closer look

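Of 76 genes, lists and library measures checked for an embryo standing apart from the other 9 (a gap over the whole range above 0.466), 8 (10.5%) had one. Chance flags about 1 in 20 groups, but many of these genes were chosen for a high SD, which a lone embryo raises, and all share the same 10 libraries, so the share is not read against that rate. In 5 of them Control 9 was the lowest embryo: Gata4 at 3.00 against 6.79 in the next, Sox17 at 4.09 against 9.04, Magea5 at 3.00 against 9.26, Tdh at 6.71 against 8.84 (relative SD 2.22, and 1.45 without Control 9), and the median deviation of the inner cell mass list at -0.53 against -0.15. Control 9 also had the most genes at 0 (247). Tpm3-rs7 was lowest in Control 10, at 8.57 against 12.63 in the next. Cubn, an endocytic receptor of primitive endoderm, was lowest in Control 6, at 8.24 against 10.64. Wars2, the least variable gene above the median level, was highest in Control 1, at 10.10 against 9.80.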

How the results depend on the processing

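No paired analysis was possible because only 1 group was analysed. The number of marker pairs that varied together was 3, and it was 5 under quantile normalization, 5 under median centring and 0 without Control 4 and Control 9. The share of variance on the first principal component was 24.4%, against 27.4% with a pseudocount of 10, 27.4% over genes above 0 in all embryos, 20.5% with the length and GC trend removed and 28.1% without Control 4 and Control 9. With that trend removed the median SD was 0.549 in place of 0.695. Of the most variable genes, 887 stayed after trend removal and 657 under the median absolute deviation, and of the least variable genes 554 and 705. The causes of these shifts were not tested.

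Leaving out 1 embryo at a time gave 0 to 4 pairs, 24.1% to 28.6% on the first component, a median SD of 0.658 to 0.709, 3426 to 4001 genes with an SD above 1, and 1067 to 1322 and 1096 to 1286 genes that stayed among the most and least variable. Of 431 percentiles of the 24 named genes, 425 stayed on their side, and the other 6 were in Tpm3-rs7, Cpn1, Pafah1b2 and Mtf1. Of 449 counts of list members 401 stayed within 1.5 times of the count reported, and of 234 values of 13 marker pairs 221 stayed on their side of the threshold. Tpm3-rs7 was at the 47.3 percentile without Control 10. What depth limits could not be set, since the counts behind the scaled values were not resolved.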
